A study of Mus musculus with 12 samples.

Results

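The insulin-like growth factor (IGF) genes described here are 10 genes of the IGF axis, of 17365 genes in the deposited table of gene counts. They are the 6 IGF binding proteins Igfbp2, Igfbp3, Igfbp4, Igfbp5, Igfbp6 and Igfbp7, the 3 receptors Igf1r, Igf2r and Insr, and the ligand Igf1, and they were taken by gene symbol. All 10 were in the table and all 10 passed the filter on low counts, as did 13641 genes in all.

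Gene expression was measured by RNA-seq in 12 libraries of neural stem cell (NSC) cultures from the adult mouse subventricular zone, to compare proliferation with 2 states of quiescence. The wild-type ANS4 line came from the MF1 strain and the wild-type BL6 line from the C57BL/6 strain, both from mice aged 6 to 8 weeks, and both were used below passage 10. All cells grew in serum-free medium with N2, B27 and laminin, and N2 and B27 both supply insulin. Cells were kept for 3 days in EGF and FGF2 at 10 ng/ml each (EGF/FGF, proliferating), in BMP4 at 10 ng/ml without EGF and FGF2 (BMP, which the study names dormant quiescence, d-qNSCs), or in BMP4 and FGF2 at 10 ng/ml each without EGF (BMP/FGF, primed quiescence, p-qNSCs). Each condition had 4 libraries, 2 biological replicates of each line. The step at which replicates were separated is not given in the sources used here, so p-values measure the spread between these libraries. Each strain is represented by 1 line, so line and strain cannot be told apart, and BMP differs from EGF/FGF in the added BMP4 and in the missing EGF and FGF2, whose parts cannot be told apart.

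Library totals ran from 18069052 to 19451818 counts, so that 1 count was worth 0.0514 to 0.0553 CPM (counts in 1000000 counts of a library). The 4 BMP/FGF libraries held summed levels of 5 astrocyte markers of 5836 to 5997 CPM, against 3476 to 4476 CPM in BMP and 1254 to 1498 CPM in EGF/FGF. Gfap and Aqp4 took this order without overlap. Aldh1l1 in BMP (812 to 1147 CPM) overlapped EGF/FGF (851 to 1054 CPM), and Gja1 and S100b overlapped between BMP and BMP/FGF. The 5 NSC markers summed to 7075 to 7622 CPM in EGF/FGF, 8262 to 9622 CPM in BMP and 10282 to 10845 CPM in BMP/FGF. Of these, Sox2, Slc1a3 and Vim were above their EGF/FGF range in both quiescent conditions, whereas Nes was at 499 to 628 CPM in EGF/FGF, 115 to 141 CPM in BMP and 111 to 119 CPM in BMP/FGF, and Fabp7 at 2197 to 2600, 276 to 669 and 1236 to 1523 CPM. Summed levels of 5 proliferation genes were 1926 to 2358 CPM in EGF/FGF, 290 to 466 CPM in BMP and 196 to 211 CPM in BMP/FGF. All measurements are of whole cultures, in which a change in the number of cells of a type and a change in RNA per cell cannot be told apart.

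IGF1 and IGF2 are secreted growth factors that signal through the receptor tyrosine kinase IGF1R and, together with insulin, through the closely related insulin receptor, and both receptors feed the PI3K and AKT pathway. IGF binding proteins are secreted carriers that hold IGFs outside the cell, where they can keep the ligand from its receptor, prolong its life or deliver it to the cell surface, and proteases that cut them set the ligand free. In the brain, IGF signalling is known for promoting growth and survival of neural progenitors.

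Igfbp2 and Igfbp5 are neighbours. In the GENCODE annotation of GRCm38, Igfbp2 lies on the plus strand at chr1:72824503-72852474 and Igfbp5 on the minus strand at chr1:72857932-72874884, so that they face each other with their 3′ ends, 5457 bases apart. Igfbp3 lies on the minus strand at chr11:7206086-7213923, Igfbp4 on the plus strand at chr11:99041244-99054392 and Igfbp7 on the minus strand at chr5:77349240-77408041. The sequences of the 250 bases before the RefSeq start of these 5 genes are shown because Igfbp2, Igfbp3 and Igfbp4 were the binding proteins with their highest level in EGF/FGF, while Igfbp5 and Igfbp7 had theirs in BMP. They are at chr1:72824230-72824479 (plus strand) for Igfbp2, chr11:7213924-7214173 (minus strand) for Igfbp3, chr11:99040994-99041243 (plus strand) for Igfbp4, chr1:72874866-72875115 (minus strand) for Igfbp5 and chr5:77408046-77408295 (minus strand) for Igfbp7. They are written 5′ to 3′ from RefSeq on GRCm38.p6, with matches to 5 motifs in capitals.
Igfbp2: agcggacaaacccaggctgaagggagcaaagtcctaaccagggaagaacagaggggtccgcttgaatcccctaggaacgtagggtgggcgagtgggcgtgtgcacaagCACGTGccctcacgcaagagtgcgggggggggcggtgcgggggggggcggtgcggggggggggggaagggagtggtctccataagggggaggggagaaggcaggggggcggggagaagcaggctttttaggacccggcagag
Igfbp3: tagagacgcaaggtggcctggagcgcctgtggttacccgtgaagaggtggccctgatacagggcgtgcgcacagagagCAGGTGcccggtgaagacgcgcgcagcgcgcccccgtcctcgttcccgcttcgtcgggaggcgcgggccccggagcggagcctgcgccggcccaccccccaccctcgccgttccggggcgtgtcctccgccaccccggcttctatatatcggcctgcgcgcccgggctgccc
Igfbp4: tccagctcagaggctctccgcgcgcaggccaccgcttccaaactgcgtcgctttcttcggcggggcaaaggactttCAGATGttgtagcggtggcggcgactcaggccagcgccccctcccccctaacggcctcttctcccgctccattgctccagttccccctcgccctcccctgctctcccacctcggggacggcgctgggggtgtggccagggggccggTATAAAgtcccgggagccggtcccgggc
Igfbp5: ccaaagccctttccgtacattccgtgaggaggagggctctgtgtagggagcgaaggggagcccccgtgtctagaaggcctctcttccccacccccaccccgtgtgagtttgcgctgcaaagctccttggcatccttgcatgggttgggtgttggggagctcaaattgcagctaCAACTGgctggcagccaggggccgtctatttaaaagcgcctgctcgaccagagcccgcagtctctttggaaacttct
Igfbp7: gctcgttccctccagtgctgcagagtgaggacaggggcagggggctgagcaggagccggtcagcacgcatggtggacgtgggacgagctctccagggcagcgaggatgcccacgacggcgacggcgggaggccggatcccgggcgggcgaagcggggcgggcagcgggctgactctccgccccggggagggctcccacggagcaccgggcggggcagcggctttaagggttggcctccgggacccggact
The motifs searched were the TATA box TATAAA on the sense strand and, on both strands, the AP-1 motif TGANTCA, the E-box CANNTG, and CAGAC, an element known to bind the SMAD proteins that carry BMP signals, and their richer site GGCGCC. No matches overlapped in these sequences. The capitals in Igfbp2, Igfbp3 and Igfbp5 are 1 E-box each, at 142, 172 and 77 bases before the start. Igfbp4 holds an E-box at 174 bases and a TATA box at 28 bases before the start, and Igfbp7 holds none of the 5 motifs. Of 32851 promoters of the same length, the E-box is found in 66.2%, the TATA box in 7.59%, the AP-1 motif in 6.75%, the shorter SMAD element in 42.2% and the longer one in 9.59%. The 5 sequences had 58.8% to 74.0% G and C, against a median of 52.4% over all promoters. Outside these 5, Igfbp6 had 49.6%, Igf1 52.8%, Igf2r 69.2% and Igf1r 77.6% G and C. The shorter SMAD element was found in Igfbp6, Igf1r and Igf2r, and the longer one and the AP-1 motif in Igf1. The E-box was present in binding proteins highest in EGF/FGF and in Igfbp5, which was highest in BMP.

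Between EGF/FGF and BMP, the binding protein transcripts changed in opposite directions. Igfbp2, Igfbp3 and Igfbp4 fell 49.5-fold, 13.0-fold and 7.77-fold, whereas Igfbp5, Igfbp6 and Igfbp7 rose 7.80-fold, 3.30-fold and 10.2-fold. The ligand Igf1 fell 10.8-fold and the scavenger receptor Igf2r 2.26-fold, Igf1r rose 1.46-fold and Insr did not pass the test. In all, 4 of the 10 genes were higher and 5 lower in BMP at a false discovery rate (FDR) under 0.05, where 40.2% of all 13641 tested genes were higher and 38.8% lower (edgeR quasi-likelihood test, Benjamini-Hochberg adjustment over all tested genes). At the study's stricter limit of 1.5 in log2 fold change, 7 of the 10 passed (the 6 binding proteins and Igf1), against 18.5% of all tested genes. The median log2 fold change was -0.53 over the 10 genes and 0.02 over all tested genes.

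**Figure D1:**
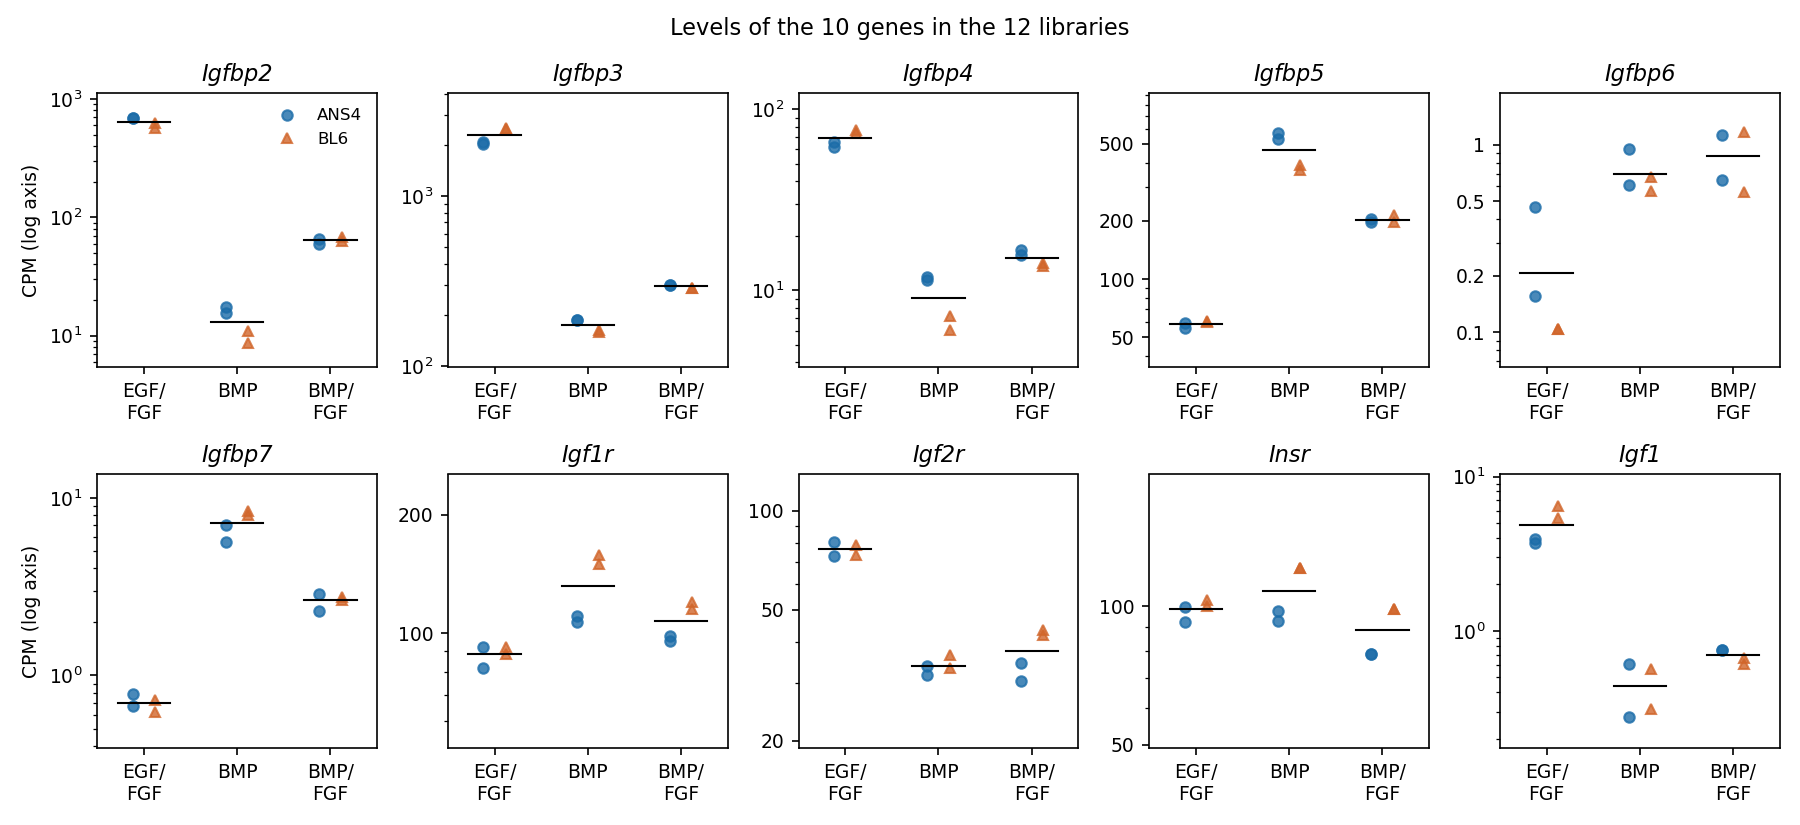
Level of each of the 10 genes in the 12 libraries (CPM, log axis), by condition, with blue circles for ANS4, orange triangles for BL6 and a black line at the mean of the 4 libraries. Igfbp2 sits at 570 to 694 CPM in EGF/FGF, 8.66 to 17.4 CPM in BMP and 59.7 to 68.0 CPM in BMP/FGF, while Igfbp5 and Igfbp7 have their highest values in BMP.

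Igfbp2, a binding protein made by neural progenitors and glia, changed the most. In EGF/FGF it was at 694 and 689 CPM in ANS4 and at 570 and 622 CPM in BL6. In BMP it was at 15.6 and 17.4 CPM in ANS4 and at 8.66 and 10.9 CPM in BL6, and in BMP/FGF at 59.7 and 65.1 CPM in ANS4 and at 63.3 and 68.0 CPM in BL6. The 3 conditions did not overlap. In BMP it fell by 5.63 ± 0.13 on the log2 scale (SE, n = 4 libraries per condition; edgeR adjusted p = 2.68e-16), the 16th largest fall among 13641 tested genes. The log2 fold change was -3.32 ± 0.12 for BMP/FGF against EGF/FGF (adjusted p = 2.39e-14) and 2.31 ± 0.13 for BMP/FGF against BMP (adjusted p = 6.64e-10), the 37th largest rise of the latter comparison. BMP/FGF thus held 9.94% of the EGF/FGF mean, and BMP 2.04%.

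Igfbp3, the main IGF carrier of blood, was the most abundant of the 6 binding proteins per length in EGF/FGF. It was at 2082 and 2013 CPM in ANS4 and at 2504 and 2483 CPM in BL6 in EGF/FGF. The same lines held 188 and 188 CPM, and 158 and 163 CPM, in BMP, and 301 and 300 CPM, and 288 and 288 CPM, in BMP/FGF. All 4 EGF/FGF libraries were far above the 8 others, and all BMP/FGF libraries were above all BMP libraries. The log2 fold changes were -3.71 ± 0.09 for BMP against EGF/FGF (edgeR adjusted p = 3.94e-16), -2.95 ± 0.09 for BMP/FGF against EGF/FGF (adjusted p = 3.83e-15) and 0.76 ± 0.08 for BMP/FGF against BMP (adjusted p = 1.76e-06). By CPM per kb of transcript, Igfbp3 ranked 30th and Igfbp2 77th of 13197 tested genes with a known length in EGF/FGF, and 867th and 6157th in BMP.

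Igfbp4, known as an inhibitor of IGF action that pappalysin proteases remove, took the same order of conditions at a lower level. It was at 62.3 and 65.6 CPM in ANS4 and at 74.3 and 76.4 CPM in BL6 in EGF/FGF, and at 11.4 and 11.8 CPM in ANS4 and at 6.03 and 7.26 CPM in BL6 in BMP. In BMP/FGF the ANS4 libraries held 15.7 and 16.7 CPM and the BL6 libraries 13.7 and 14.2 CPM. Here too the 3 conditions did not overlap, with BMP lowest. The log2 fold changes were -2.96 ± 0.15 for BMP (edgeR adjusted p = 2.42e-12) and -2.22 ± 0.14 for BMP/FGF (adjusted p = 6.1e-11), both against EGF/FGF, and 0.74 ± 0.15 for BMP/FGF against BMP (adjusted p = 0.00105). The last of these was 0.49 in the ANS4 libraries alone.

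Igfbp5, a binding protein that attaches to extracellular matrix, went the opposite way to its neighbour Igfbp2. In EGF/FGF it was at 59.0 and 56.1 CPM in ANS4 and at 59.8 and 60.6 CPM in BL6. In BMP it was at 570 and 530 CPM in ANS4 and at 368 and 388 CPM in BL6, and in BMP/FGF at 197 and 204 CPM in ANS4 and at 198 and 214 CPM in BL6. The conditions did not overlap, and BMP/FGF lay between the others. The log2 fold changes against EGF/FGF were 2.96 ± 0.11 in BMP (edgeR adjusted p = 4.01e-14) and 1.79 ± 0.10 in BMP/FGF (adjusted p = 2.59e-11), and that of BMP/FGF against BMP was -1.18 ± 0.10 (adjusted p = 9.1e-08). Per kb of transcript, Igfbp5 ranked 6336th of 13197 tested genes in EGF/FGF, 784th in BMP and 2244th in BMP/FGF.

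Igfbp7, a relative that binds IGFs only weakly, followed Igfbp5 at a far lower level. It was at 0.782 and 0.673 CPM in ANS4 and at 0.731 and 0.623 CPM in BL6 in EGF/FGF, which are 12 to 15 counts. In BMP it was at 5.60 and 6.99 CPM in ANS4 and at 8.45 and 7.98 CPM in BL6, and in BMP/FGF at 2.31 and 2.89 CPM in ANS4 and at 2.78 and 2.67 CPM in BL6. No library of a condition reached into the range of another. The log2 fold changes were 3.35 ± 0.18 for BMP against EGF/FGF (edgeR adjusted p = 6.03e-12), 1.91 ± 0.20 for BMP/FGF against EGF/FGF (adjusted p = 8.49e-08) and -1.44 ± 0.14 for BMP/FGF against BMP (adjusted p = 5.17e-07). Igfbp7 overlaps Polr2b and Gm34648, genes on the other strand, and the sources used here do not say whether strand was used in counting, so reads of the shared part may not be told apart. Polr2b had a log2 fold change of -0.15 in BMP (adjusted p = 0.0349), and the part of shared reads was not tested.

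Igfbp6, which prefers IGF2 over IGF1, was close to the limit of detection. It had 3 and 9 counts in ANS4 and 2 and 2 counts in BL6 in EGF/FGF, 17 and 11 counts and 11 and 13 counts in BMP, and 12 and 21 counts and 21 and 10 counts in BMP/FGF. The EGF/FGF libraries were all below the others, whereas BMP and BMP/FGF overlapped. It rose by 1.72 ± 0.45 on the log2 scale in BMP (edgeR adjusted p = 0.00216) and by 2.05 ± 0.44 in BMP/FGF (adjusted p = 0.000364), and the 2 quiescent conditions differed by 0.32 ± 0.35 (adjusted p = 0.489). Without ANS4 EGF/FGF replicate 2, which had the 9 counts, these rises were 2.42 and 2.74. In the ANS4 libraries alone the rise in BMP was 1.30 (adjusted p = 0.05) and it also passed in the BL6 libraries alone (adjusted p = 0.00587). On the deposited regularized log2 values, which pull low counts together, the changes against EGF/FGF were 0.49 and 0.61.

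**Figure D2:**
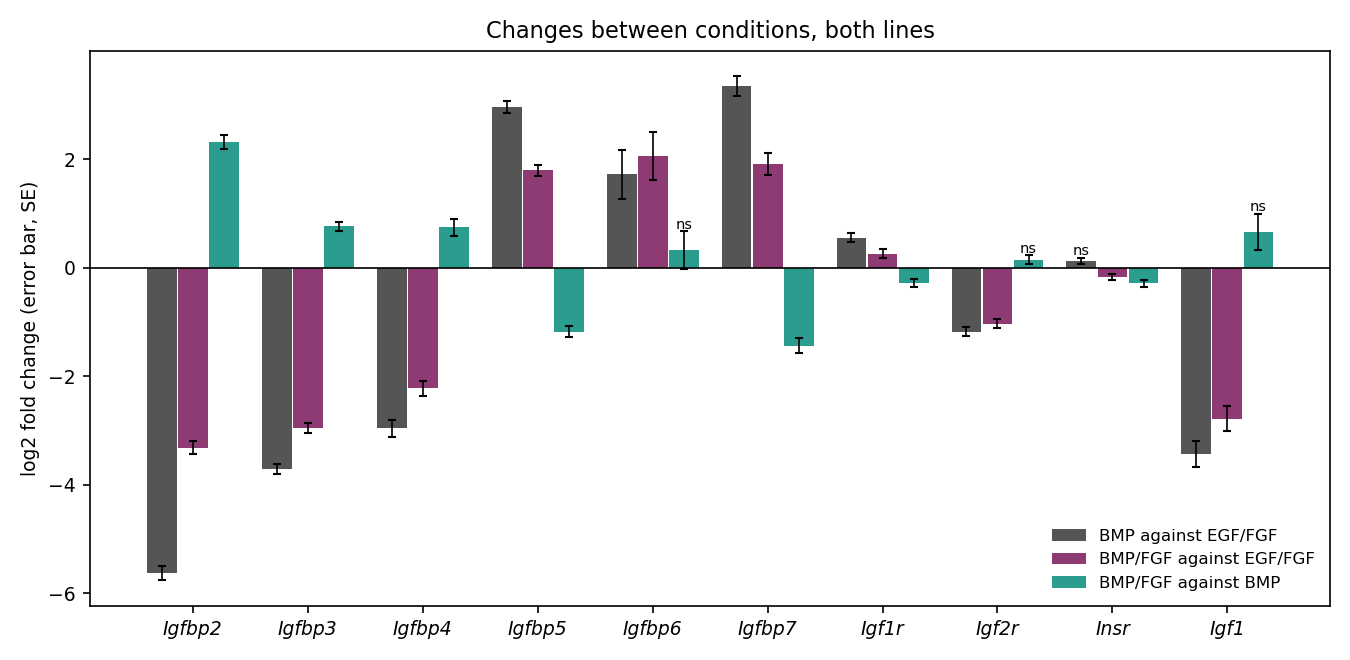
Log2 fold change of each of the 10 genes in the 3 comparisons over both lines, with error bars for the SE; bars marked ns did not pass an FDR of 0.05. Igfbp2, Igfbp3, Igfbp4, Igfbp5 and Igfbp7 had a called change between BMP and EGF/FGF of over 1.5 and a called change between the quiescent conditions. For these genes the green bar points against the grey bar. The same BMP libraries enter both comparisons with opposite signs, which favours opposite bars. The share of such genes among all tested genes was not computed.

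Against EGF/FGF, the receptors had smaller log2 fold changes than any of the 6 binding proteins. Igf1r, the main signalling receptor for IGF1, was at 81.9 and 92.2 CPM in ANS4 and at 92.4 and 88.6 CPM in BL6 in EGF/FGF, at 111 and 107 CPM and 150 and 158 CPM in BMP, and at 98.5 and 95.5 CPM and 120 and 115 CPM in BMP/FGF. All libraries of both quiescent conditions were above all EGF/FGF libraries, while BMP and BMP/FGF overlapped across lines and not within a line. The log2 fold changes were 0.55 ± 0.08 for BMP (edgeR adjusted p = 3.39e-06) and 0.26 ± 0.08 for BMP/FGF (adjusted p = 0.00452) against EGF/FGF, and -0.28 ± 0.08 for BMP/FGF against BMP (adjusted p = 0.00645). In the ANS4 libraries alone these were 0.33, 0.17 and -0.16, and the last did not pass the test (adjusted p = 0.0719).

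Igf2r, the mannose 6-phosphate receptor that takes up IGF2 for degradation and sorts lysosomal enzymes, was lower in both quiescent conditions. In EGF/FGF it was at 72.9 and 80.6 CPM in ANS4 and at 78.6 and 73.3 CPM in BL6. In BMP the values were 33.8 and 31.7 CPM in ANS4 and 36.4 and 33.2 CPM in BL6, and in BMP/FGF 34.6 and 30.4 CPM in ANS4 and 42.0 and 43.4 CPM in BL6. EGF/FGF stood above all other libraries, and BMP and BMP/FGF overlapped. Igf2r fell by 1.18 ± 0.08 on the log2 scale in BMP (edgeR adjusted p = 3.64e-10) and by 1.03 ± 0.08 in BMP/FGF (adjusted p = 2.32e-09), with a difference of 0.15 ± 0.08 between them (adjusted p = 0.182). That difference passed the test in the BL6 libraries alone (0.29, adjusted p = 0.0179) and without ANS4 BMP/FGF replicate 2 (0.23, adjusted p = 0.0388). The gene overlaps Airn, a transcript of the other strand.

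Insr, the insulin receptor, had the smallest change against EGF/FGF of the 10 genes. It was at 99.8 and 92.6 CPM in ANS4 and at 100 and 103 CPM in BL6 in EGF/FGF, at 93.1 and 97.8 CPM and 121 and 121 CPM in BMP, and at 78.6 and 78.8 CPM and 98.9 and 98.5 CPM in BMP/FGF. BL6 was above ANS4 in both quiescent conditions. Insr overlaps Vmn2r-ps88 and Gm16180, which lie on the other strand. The log2 difference of BMP from EGF/FGF was 0.12 ± 0.06 (edgeR adjusted p = 0.0864), with -0.01 in the ANS4 libraries (adjusted p = 0.862) and 0.25 in the BL6 libraries (adjusted p = 0.00487). It also passed without ANS4 EGF/FGF replicate 1 (0.18, adjusted p = 0.02) and with scaling by library size alone (0.15, adjusted p = 0.0429). BMP/FGF was below EGF/FGF by a log2 fold change of -0.17 ± 0.06 (adjusted p = 0.0241) and below BMP by -0.29 ± 0.06 (adjusted p = 0.00158). The call against EGF/FGF was lost in 6 of 22 alternative fits, among them the BL6 libraries alone (-0.04), the fit without the line term (-0.16) and the fits that leave out ANS4 EGF/FGF replicate 1 (-0.10), ANS4 EGF/FGF replicate 2, ANS4 BMP/FGF replicate 1 or ANS4 BMP/FGF replicate 2 (-0.16 each).

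Igf1, the ligand, was at 3.96 and 3.73 CPM in ANS4 and at 5.38 and 6.44 CPM in BL6 in EGF/FGF, which are 72 to 124 counts. In BMP it had 11 and 5 counts in ANS4 and 11 and 6 counts in BL6, and in BMP/FGF 14 and 14 counts in ANS4 and 11 and 12 counts in BL6. The EGF/FGF libraries stood far above the rest, and the highest BMP libraries had as many counts as the lowest BMP/FGF library. Igf1 fell by 3.44 ± 0.24 on the log2 scale in BMP (edgeR adjusted p = 4.09e-10) and by 2.78 ± 0.23 in BMP/FGF (adjusted p = 2.89e-09). The difference between BMP/FGF and BMP was 0.66 ± 0.33 (adjusted p = 0.126), and without ANS4 BMP replicate 1 it was 0.93 (adjusted p = 0.0491). On the regularized log2 values the fall in BMP was -2.15. Igf1 overlaps Igf1os, a transcript of the other strand.

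BMP/FGF was compared with EGF/FGF and with BMP in the same fit, so these comparisons share libraries. Against EGF/FGF, 4 genes were higher (Igfbp5, Igfbp6, Igfbp7 and Igf1r) and the other 6 lower in BMP/FGF, where 40.0% of all tested genes were higher and 38.1% lower (edgeR quasi-likelihood test, FDR under 0.05). The 6 binding proteins and Igf1 passed the limit of 1.5, which 17.4% of all tested genes did. Between BMP/FGF and BMP, Igfbp2, Igfbp3 and Igfbp4 were higher and Igfbp5, Igfbp7, Igf1r and Insr lower in BMP/FGF, where 19.2% of all tested genes were higher and 21.5% lower. Only Igfbp2 among the 10 passed the limit of 1.5 in that comparison, against 1.91% of all tested genes. The medians of the 10 genes were -0.60 and 0.24, against 0.01 and -0.01 over all tested genes.

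Because transcript lengths differ from 1112 bases for the longest coding transcript of Igfbp6 to 6006 bases for that of Igfbp5, levels of different binding proteins were compared as CPM per kb of that transcript. On this scale the sum of the 6 binding proteins was 1386 to 1532 in the EGF/FGF libraries. The BMP libraries had a sum of 142 to 193, and the BMP/FGF libraries of 207 to 215. Nearly all of it in EGF/FGF was Igfbp3 (60.0% to 68.9%) and Igfbp2 (29.1% to 38.0%), with 0.659% to 0.693% for Igfbp5. In BMP, Igfbp5 made up 43.1% to 49.2% of the sum, Igfbp3 40.2% to 45.9%, Igfbp2 4.65% to 7.04% and Igfbp7 2.42% to 4.95%. BMP/FGF had Igfbp3 at 55.8% to 59.4%, Igfbp2 at 21.8% to 24.4% and Igfbp5 at 15.7% to 16.7%. For none of Igfbp2, Igfbp3 and Igfbp5 did the range in EGF/FGF overlap the ranges in the other conditions.

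**Figure D3:**
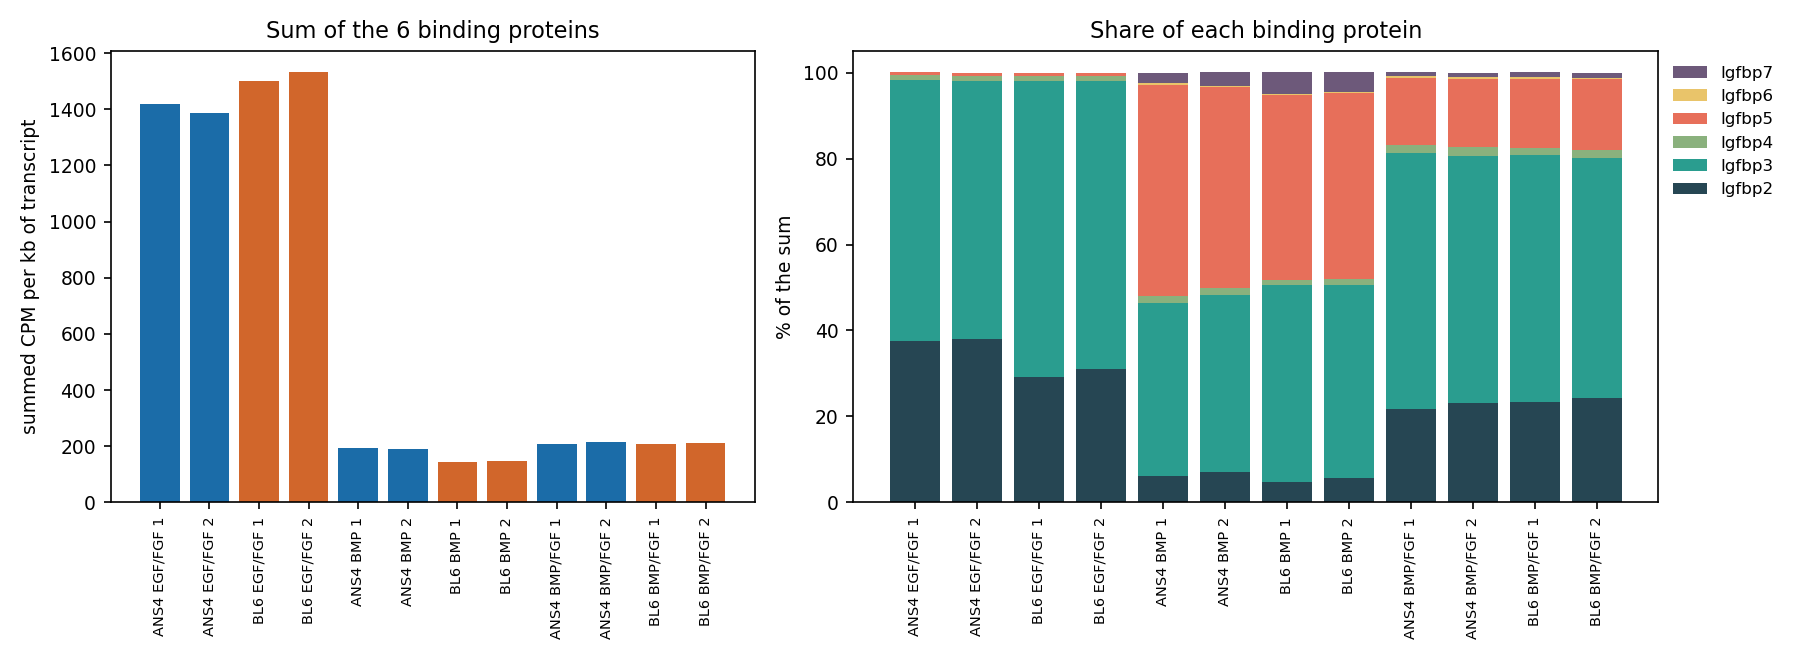
Left, sum of the 6 binding proteins in CPM per kb of transcript in each library (blue bars ANS4, orange bars BL6); right, the percent of that sum from each binding protein. The sum is 1386 to 1532 in EGF/FGF and at most 215 elsewhere, and the red part, Igfbp5, grows from under 1% in EGF/FGF to 43.1% to 49.2% in BMP.

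The ratio of Igfbp5 to Igfbp2, both per kb, was 0.0177 to 0.0228 in the EGF/FGF libraries. It stood at 6.64 to 9.26 in BMP, and in BMP/FGF it was 0.680 to 0.719. Around these neighbours, 4 further tested genes lay within 500 kb of Igfbp2. For BMP against EGF/FGF, edgeR gave Xrcc5, which acts in repair of DNA breaks, a log2 fold change of -1.22 (adjusted p = 2.63e-11), the ribosomal protein gene Rpl37a -1.22 (adjusted p = 3.42e-11), the ubiquitin ligase gene March4 -2.10 (adjusted p = 4.86e-11) and Smarcal1, which acts at stalled replication forks, 0.21 (adjusted p = 0.01). For BMP/FGF against BMP, March4 (0.67) and Rpl37a (0.29) passed the test, and Xrcc5 (0.12) and Smarcal1 (0.09) did not. Igfbp2 and Igfbp5 had the most negative and the most positive change of these 6 genes in BMP, although they are the closest pair.

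**Figure D4:**
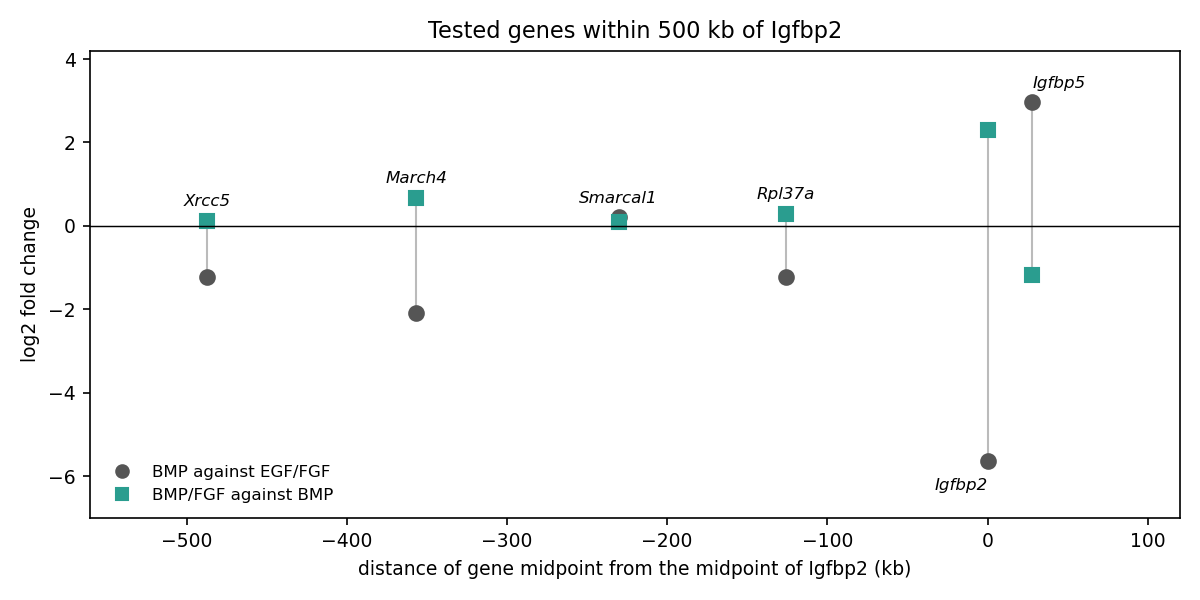
Log2 fold change of the 6 tested genes at and within 500 kb of Igfbp2 against the distance of their midpoints (kb), with grey circles for BMP against EGF/FGF and green squares for BMP/FGF against BMP. Igfbp2 (-5.63 and 2.31) and Igfbp5 (2.96 and -1.18) lie side by side with opposite signs in both comparisons.

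The lines agreed in the direction of every change called in both of them, and differed in the size of several. For BMP against EGF/FGF, the test of the difference between lines (BL6 minus ANS4, edgeR quasi-likelihood interaction term) passed for 5 of the 10 genes, against 8.49% of all tested genes. The log2 fold change of Igfbp2 was -5.39 in ANS4 and -5.93 in BL6, a difference of -0.54 ± 0.14 (adjusted p = 0.0218). That call was lost without ANS4 EGF/FGF replicate 1 (-0.53), ANS4 EGF/FGF replicate 2 (-0.53), ANS4 BMP replicate 2 (-0.46), BL6 EGF/FGF replicate 2 (-0.46) or BL6 BMP replicate 1 (-0.37). Igfbp3 had -3.45 in ANS4 and -3.96 in BL6, a difference of -0.51 ± 0.08 (adjusted p = 0.000481). Igfbp4 showed the widest gap of these, with -2.46 in ANS4 and -3.50 in BL6 and a difference of -1.04 ± 0.14 (adjusted p = 0.000229). Its BMP level was 18.1% of the EGF/FGF mean in ANS4 and 8.82% in BL6.

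Igfbp5 rose less in BL6 than in ANS4 under BMP, with log2 fold changes of 2.65 and 3.26 and a difference of -0.61 ± 0.09 (edgeR adjusted p = 0.000776). Igf1r rose more in BL6, with 0.76 against 0.33 and a difference of 0.44 ± 0.10 (adjusted p = 0.0099), and without ANS4 EGF/FGF replicate 2 that difference was 0.35 and did not pass (adjusted p = 0.0665). For BMP/FGF against BMP the interaction passed for 3 genes, against 13.5% of all tested genes. Igfbp2 rose by 1.93 in ANS4 and by 2.74 in BL6, a difference of 0.83 ± 0.14 (adjusted p = 0.00125). Igfbp4 rose by 0.49 and by 1.07, a difference of 0.58 ± 0.15 (adjusted p = 0.0183), which did not pass without ANS4 BMP replicate 2 (0.56), ANS4 BMP/FGF replicate 1 (0.54), BL6 BMP replicate 1 (0.44) or BL6 BMP/FGF replicate 2 (0.56). Igfbp5 had log2 fold changes of -1.44 in ANS4 and -0.88 in BL6, a difference of 0.58 ± 0.09 (adjusted p = 0.000615). Both interactions use the same BMP libraries.

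**Figure D5:**
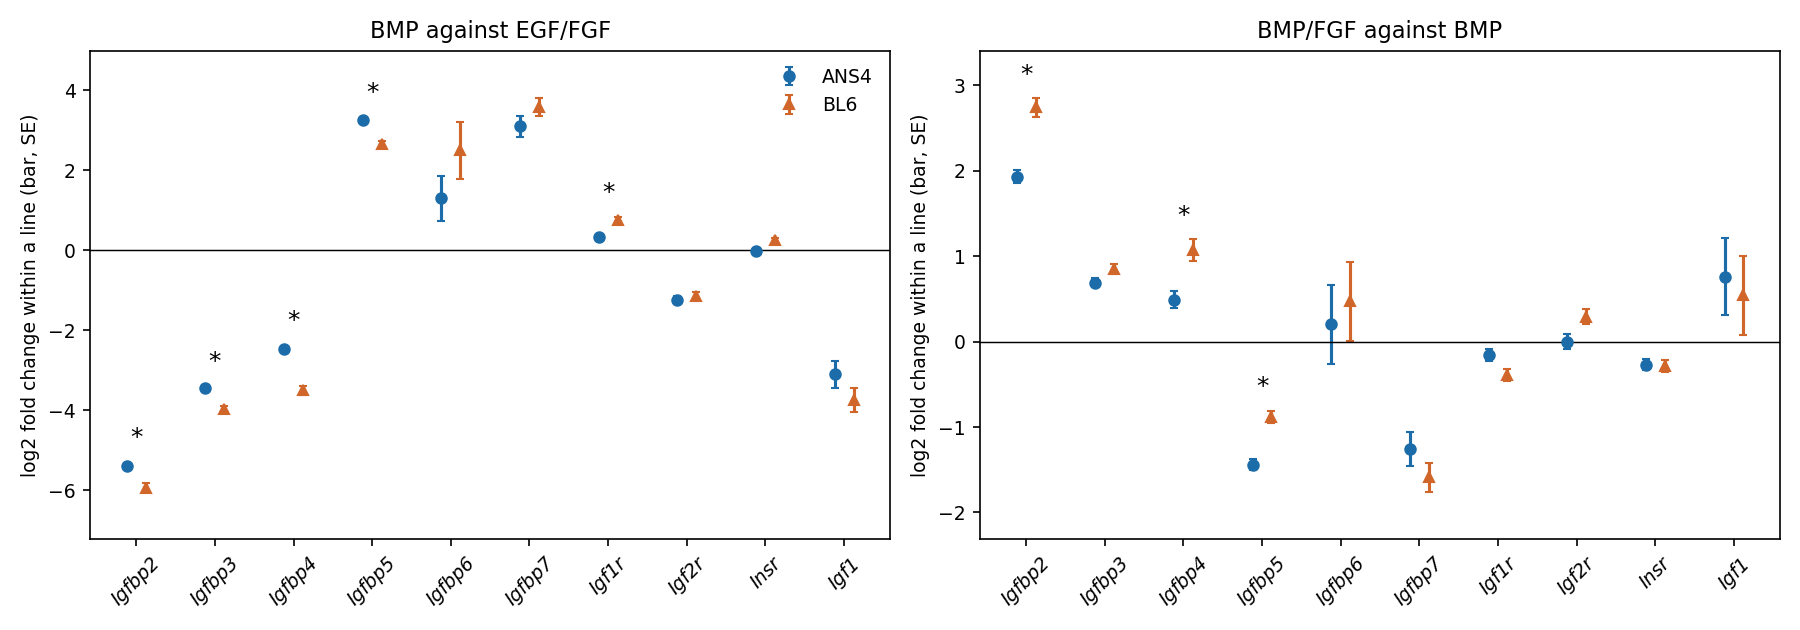
Log2 fold changes of the 10 genes fitted within ANS4 (blue circles) and within BL6 (orange triangles), with bars for the SE; left, BMP against EGF/FGF, right, BMP/FGF against BMP, and a star where the interaction passed an FDR of 0.05. Stars stand over Igfbp2, Igfbp3, Igfbp4, Igfbp5 and Igf1r on the left and over Igfbp2, Igfbp4 and Igfbp5 on the right.

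In BMP the BL6 libraries also held more of the summed neuroblast markers (1169 to 1281 CPM, against 719 to 724 CPM in ANS4) and more of the proliferation genes (412 to 466 CPM, against 290 to 312 CPM), and less of the astrocyte markers (3476 to 3554 CPM, against 4464 to 4476 CPM). Their part in the line differences was not tested. Over the 3 conditions together, the lines differed in Igf1r (log2 0.28 ± 0.06 higher in BL6, edgeR adjusted p = 0.0331) and in Insr (0.25 ± 0.05 higher, adjusted p = 0.0224), where 1.08% of all tested genes were higher in BL6, and no member was lower. With the EGF/FGF libraries alone the receptor differences were 0.06 for Igf1r (adjusted p = 0.659) and 0.08 for Insr (adjusted p = 0.489). The Igf1r call was also lost with no filter on low counts and without ANS4 EGF/FGF replicate 1 (0.29), ANS4 BMP replicate 1 (0.25) or 2 (0.24), ANS4 BMP/FGF replicate 2 (0.27), BL6 BMP replicate 1 (0.26) or 2 (0.25), or BL6 BMP/FGF replicate 1 (0.27). The Insr call was lost without ANS4 BMP replicate 1 (0.22), ANS4 BMP replicate 2 (0.24) or BL6 BMP replicate 1 (0.24).

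Markers of other cells moved with the conditions as well. The 5 neuroblast markers summed to 287 to 318 CPM in EGF/FGF, 719 to 1281 CPM in BMP and 308 to 348 CPM in BMP/FGF, highest in BMP like Igfbp5 and Igfbp7, with all 5 genes above 3 counts in some library. In EGF/FGF most of the sum was Cd24a (257 to 291 CPM). Cd24a overlapped this range in BMP (237 to 344 CPM) and stood at 148 to 170 CPM in BMP/FGF. Sp8 was lower there too (0.268 to 0.947 CPM, against 1.4 to 2.18 CPM). Dcx, Dlx2 and Tubb3 were higher, with BMP/FGF between EGF/FGF and BMP. Their EGF/FGF levels were 0.627 to 2.18, 14.2 to 15.6 and 10.6 to 13.1 CPM. With BMP/FGF they reached 47.5 to 54.5, 69.8 to 83.2 and 39.9 to 49.0 CPM. The part of the neuroblast markers in the changes of Igfbp5 and Igfbp7 was not tested. The oligodendrocyte marker Mbp was at 0.259 to 0.782 CPM in EGF/FGF, 3.27 to 4.95 CPM in BMP and 2.66 to 3.68 CPM in BMP/FGF, Mog, Mag and Sox10 were at most 0.985 CPM in any library, and their part was not tested. Igfbp7 and Igfbp4 are also known from vessel-associated and connective tissue cells. The 5 pericyte markers summed to 1.78 to 2.40 CPM in EGF/FGF, 2.47 to 3.72 CPM in BMP and 4.66 to 5.57 CPM in BMP/FGF, with Kcnj8 and Anpep at 3 counts or fewer in every library. In the same order of conditions, Rgs5 was at 0.932 to 1.61, 1.13 to 1.44 and 3.05 to 4.07 CPM. Pdgfrb differed from it, with 0.312 to 0.73, 1.18 to 2.27 and 1.33 to 1.45 CPM. The part of the pericyte markers in the changes of Igfbp7 and Igfbp4 was not tested. Over all libraries, the 3 measured endothelial markers summed to 1.57 to 4.33 CPM and the 3 measured choroid plexus markers to 0.155 to 1.55 CPM. The choroid plexus sum was lowest in EGF/FGF, at no more than 0.312 CPM. The sums of the 4 measured fibroblast markers (Col1a2 and Lum at 3 counts or fewer) and of the 5 measured microglia markers (Csf1r at 3 counts or fewer) had the opposite order. EGF/FGF libraries held 2.87 to 3.53 CPM of the fibroblast and 9.57 to 14.7 CPM of the microglia sum. For BMP these sums were 0.611 to 0.824 and 5.33 to 6.21 CPM, and for BMP/FGF 0.913 to 1.07 and 7.13 to 9.32 CPM. Igfbp2, Igfbp3 and Igfbp4 took the same order of conditions as these sums, and the part of these markers in their changes was not tested. Most of the microglia sum was Itgam (8.21 to 12.8 CPM in EGF/FGF, 3.05 to 3.92 CPM in BMP and 4.72 to 5.89 CPM in BMP/FGF). P2ry12 did not take that order, with 0.828 to 1.88, 1.85 to 2.61 and 1.17 to 3.33 CPM. Cx3cr1 and Tmem119 were at most 0.52 and 0.222 CPM in any library and overlapped between conditions. The 3 measured ependymal markers summed to 62.2 to 81.7 CPM in EGF/FGF, 181 to 221 CPM in BMP and 188 to 196 CPM in BMP/FGF, mainly from Foxj1.

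The remaining genes of the pathway were described from 5 lists. In BMP against EGF/FGF 40.2% of all tested genes were higher and 38.8% lower, in BMP/FGF against EGF/FGF 40.0% and 38.1%, and in BMP/FGF against BMP 19.2% and 21.5%. Of 7 other ligands and binding proteins, 2 passed the filter. Igf2 was at 0.777 to 1.67 CPM over all libraries and did not pass the test in any of the 3 comparisons (log2 fold changes of -0.32, -0.19 and 0.12). Igfbpl1, a relative of the binding proteins, held 14.3 to 22.6 CPM in EGF/FGF, and it rose in BMP, where it held 63.1 to 81.6 CPM (log2 1.96 ± 0.12, edgeR adjusted p = 3.69e-11), and in BMP/FGF, where it held 82.0 to 98.5 CPM (2.32 ± 0.12, adjusted p = 3.88e-12). BMP/FGF was above BMP by 0.36 ± 0.11 (adjusted p = 0.012). Igfals and Insrr had at most 4 and 3 counts in any library and were not tested. Igfbp1, Ins1 and Ins2 were not found under these symbols among the genes with deposited counts.

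Of 7 proteases that cut binding proteins and their inhibitors, 5 were tested; 1 rose and 4 fell in BMP, with a median log2 fold change of -2.10 against 0.02 over all tested genes. Adam12, a membrane protease that cuts IGFBP3 and IGFBP5, ranged from 253 to 307 CPM in EGF/FGF. It held only 18.3 to 26.4 CPM in BMP (log2 -3.70 ± 0.08, edgeR adjusted p = 9.07e-17) and 21.6 to 24.5 CPM in BMP/FGF (-3.61 ± 0.08, adjusted p = 1.87e-16). Ctsd, a lysosomal protease, went up in both, with 505 to 702 CPM in EGF/FGF, 806 to 1062 CPM in BMP (0.67 ± 0.10) and 1219 to 1407 CPM in BMP/FGF (1.16 ± 0.10). In BMP/FGF, 2 of the 5 were higher and 3 lower than in EGF/FGF, with a median of -1.45. Between the quiescent conditions 3 were higher and 1 lower in BMP/FGF. Stc2 was higher by 0.79 ± 0.24 (edgeR adjusted p = 0.0129), at low levels of 0.833 to 1.24 CPM in BMP and 1.33 to 2.46 CPM in BMP/FGF. Stc1 was at -1.30 ± 0.27 (adjusted p = 0.000914), with 1.61 to 4.61 CPM in BMP and 0.613 to 1.44 CPM in BMP/FGF. Both encode stanniocalcins, inhibitors of pappalysin proteases. Pappa and Pappa2 themselves had at most 5 and 3 counts in any library and were not tested.

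Among 11 tested adaptors that act next to the receptors, 7 rose and 3 fell in BMP, with a median of 0.42 against 0.02 over all tested genes. Irs4, a substrate of the insulin and IGF1 receptors, rose, with 0.104 to 0.208 CPM in EGF/FGF and 0.388 to 1.24 CPM in BMP (2.37 ± 0.49, edgeR adjusted p = 0.000272). Its EGF/FGF level was close to the limit of detection, as 1 count was worth 0.0514 to 0.0553 CPM. The adaptor Shc1 fell, with 46.2 to 51.0 CPM in EGF/FGF and 34.4 to 40.1 CPM in BMP (-0.43 ± 0.07, edgeR adjusted p = 9.1e-06). In BMP/FGF, 5 were higher and 4 lower than in EGF/FGF (median 0.12), with Irs4 at 2.35 ± 0.50 and the receptor substrate Irs2 at -0.70 ± 0.09. Between the quiescent conditions, 6 of the 11 were lower in BMP/FGF and the other 5 did not pass (median -0.21), where 21.5% of all tested genes were lower, led by the adaptor Sh2b2 at -0.53 ± 0.10 (adjusted p = 0.0004). Grb10 had at most 9 counts in any library and was not tested.

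Of 17 genes of the PI3K, AKT and FOXO list, 10 rose and 4 fell in BMP, with a median of 0.16 against 0.02 over all tested genes. Foxo1, a transcription factor that AKT keeps out of the nucleus, rose, with 30.9 to 37.2 CPM in EGF/FGF and 77.8 to 94.1 CPM in BMP (1.34 ± 0.09, edgeR adjusted p = 1.4e-10), and Pik3cb, a catalytic subunit of PI3K, fell by 0.59 ± 0.08 (adjusted p = 1.12e-06). In BMP/FGF, 5 were higher and 7 lower than in EGF/FGF (median -0.02), with Foxo3 at 0.84 ± 0.07 and Pik3cb at -1.06 ± 0.08. Against BMP, 1 was higher in BMP/FGF, Rheb, an activator of mTOR (0.21 ± 0.07, adjusted p = 0.0233), and 10 were lower (median -0.21), where 21.5% of all tested genes were lower, led by the regulatory subunit Pik3r3 at -0.70 ± 0.06 (adjusted p = 6.59e-08). In mannose 6-phosphate sorting, the pathway of Igf2r, 1 of 4 genes rose and 2 fell in BMP, 2 were higher and 2 lower in BMP/FGF than in EGF/FGF, and none of the 4 passed between BMP/FGF and BMP, with medians of -0.10, 0.05 and 0.11 against 0.02, 0.01 and -0.01 over all tested genes. Gnptg, a subunit of the enzyme that makes the mannose 6-phosphate tag, had log2 fold changes of 0.88 ± 0.07 and 0.87 ± 0.07 in BMP and BMP/FGF, and Nagpa, which uncovers the tag, -0.54 ± 0.10 and -0.44 ± 0.10.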

How the data were processed

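The authors trimmed reads with Trim Galore 0.5.0, quantified them with kallisto 0.44.0 on mm10 and summed them to genes, and deposited estimated counts as whole numbers. The authors also deposited log2 values from the regularized logarithm of DESeq2 (1.27.32 as stated). Use of strand and the transcript annotation are not given in the sources used here. Genes that passed filterByExpr over the 6 groups of line and condition (13641; 3724 did not) were fitted in edgeR 4.0.16 (R 4.3.3) with TMM scaling, a quasi-likelihood F-test (two-sided) and terms for condition and line over all 12 libraries; interactions were fitted with 6 groups. P-values were adjusted after Benjamini and Hochberg across the tested genes, and FDR under 0.05 was called. Each SE (± and error bars) is the log2 fold change without its sign divided by the square root of its F statistic. It therefore uses the spread of the whole fit, not that of single conditions. CPM were TMM-scaled; lengths are of the longest coding transcript in GENCODE on GRCm38. Replicate libraries differed by more than sampling noise (chi-square per degree of freedom from 2.14 to 12.4, the highest in BL6 BMP). The scripts were tested on simulated data. The 10 genes, the pathway lists and the markers were chosen with earlier results of these data known. The value of 1 marker gene, and the sum of its list, are not reported here. Named genes were all 10 members and, per list and comparison, the called genes with the largest rise and fall. Promoters matched 9 of the 10 genes (all but Insr). Alternatives were DESeq2 1.42.0, limma 3.58.1 on the regularized log2 values, other scaling, filters, terms and subsets, and each library left out.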

Additional observations from a re-analysis of the deposited data

Results flagged for a closer look

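In EGF/FGF, the Igfbp6 level of ANS4 replicate 2 was 0.466 CPM, far from the 3 other libraries of the condition at 0.104 to 0.156 CPM. Its gap took 0.855 of the range of the condition, above Dixon's 95% critical value for 4 samples. These are 9 counts against 2 or 3. Of 30 groups examined (10 genes in 3 conditions) 1 passed this limit, and chance passes about 1 in 20.

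In 8 cases the size of a change differed between the lines (BL6 minus ANS4, edgeR quasi-likelihood interaction term, adjusted over all tested genes). For BMP against EGF/FGF these were Igfbp2 (-0.54, adjusted p = 0.0218), Igfbp3 (-0.51, adjusted p = 0.000481), Igfbp4 (-1.04, adjusted p = 0.000229), Igfbp5 (-0.61, adjusted p = 0.000776) and Igf1r (0.44, adjusted p = 0.0099). For BMP/FGF against BMP they were Igfbp2 (0.83, adjusted p = 0.00125), Igfbp4 (0.58, adjusted p = 0.0183) and Igfbp5 (0.58, adjusted p = 0.000615). Both sets share the BMP libraries, in which BL6 was below ANS4 for Igfbp2 (log2 -0.74), Igfbp4 (-0.79) and Igfbp5 (-0.53) when only those 4 libraries were fitted (adjusted p = 0.0186, 0.0148 and 0.00606).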

How the results depend on the processing

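Of 1193 values of single genes recomputed under an alternative, 1121 kept their direction and their side of the threshold, 31 lost and 17 gained a call, and 24 changed sign; all of the last had not passed the test as reported, and the cause was not tested. For BMP against EGF/FGF, each of the 9 called genes kept its call under all 22 alternatives. With ANS4 alone, Insr in BMP against EGF/FGF was -0.01 and Igf2r in BMP/FGF against BMP -0.00066. For BL6 against ANS4, the EGF/FGF libraries alone gave Igfbp4 0.24 (adjusted p = 0.0352), Igfbp5 0.06, Igfbp7 -0.10 and Igf2r -0.02, the BMP libraries alone Igfbp3 -0.22 and Igf1 -0.0033, the BMP/FGF libraries alone Igfbp2 0.07, Igfbp3 -0.07, Igfbp5 0.03 and Igf1 -0.24, and the regularized log2 values Igfbp3 -0.0018. Leaving out a library gave Igfbp3 -0.04 to 0.04 for BL6 against ANS4, Igf1 -1.11 to 0.02 in the interaction for BMP against EGF/FGF, and in that for BMP/FGF against BMP Igfbp6 -0.34 to 0.74, Insr -0.05 to 0.02 and Igf1 -0.88 to 0.26.

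The number of the 10 genes called between lines (2) was 1 with no filter, 4 in the EGF/FGF libraries, 5 in the BMP libraries and 0 to 2 with a library left out; over all tested genes it was 255, and 109 with no filter, 536 with DESeq2, 143 on the regularized log2 values, 1321, 1074 and 1115 in the EGF/FGF, BMP and BMP/FGF libraries alone and 52 to 284 with a library left out. Leaving out a library moved the interaction for BMP against EGF/FGF from 5 genes to 3 to 6 (3 without ANS4 EGF/FGF replicate 2) and that for BMP/FGF against BMP from 3 to 2 or 3; over all tested genes these went from 1158 to 584 to 2405 and from 1836 to 893 to 2789, and to 607 in place of 1158 with only the 2 conditions compared. The Igfbp2 interaction for BMP against EGF/FGF lost its call in 6 of 17 alternatives (-0.37 to -0.54, adjusted p up to 0.0949) and the Igfbp4 interaction for BMP/FGF against BMP in 4 (0.44 to 0.56, adjusted p up to 0.0729). Scaling by library size alone moved the share of higher among all interaction calls from 54.7% to 70.8% for BMP against EGF/FGF and from 53.8% to 27.8% for BMP/FGF against BMP. On the regularized log2 values the genes past 1.5 were 1509 in place of 2527, 1366 in place of 2367 and 65 in place of 260 in the 3 comparisons of conditions.

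Replicate numbers did not pair the libraries (correlations of deviations from -0.0668 to 0.0484); with a replicate block 9, 10 and 7 of the 10 genes were called in these 3 comparisons, as without it. Depth limits Igfbp6 (2 to 21 counts), Igf1 in BMP and BMP/FGF (5 to 14 counts) and Igfbp7 in EGF/FGF (12 to 15 counts).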

Other observations

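By the root mean square difference of centred log2 CPM over the 12 libraries, over 9703 genes whose mean of all libraries reached 10 CPM, the profile nearest to Igfbp2 was that of Adamts14, a procollagen protease, at 0.444 log2 units, with means of 171 CPM in EGF/FGF, 4.69 CPM in BMP and 13.5 CPM in BMP/FGF. Hmga2, a chromatin protein of proliferating progenitors, followed at 0.562. Igfbp3 was closest to Lgals1, which encodes galectin-1, at 0.124, with means of 1150, 88.1 and 142 CPM in the same order, and to Tcim at 0.146 and the laminin subunit gene Lamb1 at 0.157. Igfbp4 was closest to Plvap at 0.162. Igfbp5 was closest to Dysf, which encodes the membrane repair protein dysferlin, at 0.145 (3.39, 24.8 and 12.7 CPM) and to Prdm16, a transcriptional regulator of neural stem cells, at 0.163 (2.80 CPM in EGF/FGF and 20.9 CPM in BMP). Igfbp7 was closest to the sialyltransferase gene St3gal1 at 0.196 (7.02, 73.4 and 23.1 CPM). Igf1r and Igf2r were closest to Zfyve26 at 0.103 and to the ribosomal protein gene Rpl4 at 0.101, and Igf1 to Lyar at 0.290. These are descriptions over 3 conditions, in which any gene whose changes between conditions have like direction and size comes out as near.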
